A study of Homo sapiens with 24 samples.

Results

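The nuclear genes for subunits of respiratory chain complexes I to IV were followed in 2 human prostate cancer cell lines. Of 41 genes, listed by name with earlier results of these data known, 38 had a probe set that names that gene alone, among 19775 genes on the arrays. They were 22 of 23 genes of complex I, 3 of 4 of complex II, 5 of 6 of complex III and 8 of 8 of complex IV. The other 3 are not analysed here, and for 1 of them, NDUFS8, the probe sets name several genes. Each gene was read from the probe set with the highest mean intensity over 24 arrays.

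The arrays were Affymetrix HG-U133 Plus 2.0, hybridised with total RNA of VCaP and LNCaP, both established lines that respond to androgen. VCaP carries an androgen-driven ERG fusion and LNCaP a rearranged ETV1, and each of these genes encodes an ETS family transcription factor. In VCaP, ERG was knocked down by transfected siRNA (siERG, with siControl as its control). In LNCaP, ETV1 was knocked down by shRNA (shETV1), with a control that the titles call shControl and one other label calls siControl. RNA interference preceded the hormone steps by 24 h, after which all 8 groups spent 2 days in hormone-depleted medium and 16 h with vehicle (ethanol, EtOH) or 10 nM dihydrotestosterone (DHT), an androgen. The groups were therefore VCaP siControl EtOH, VCaP siERG EtOH, VCaP siControl DHT, VCaP siERG DHT, LNCaP shControl EtOH, LNCaP shETV1 EtOH, LNCaP shControl DHT and LNCaP shETV1 DHT. Each held 3 arrays, named A, B and C, from biological replicates, and having only 3 limits how precise any value is. The knockdowns were transient and partial, in 1 line and by 1 method for each factor, so factor, method and line cannot be told apart.

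The respiratory chain moves electrons from nutrients to oxygen across the inner mitochondrial membrane. Complex I takes them from NADH and complex II (succinate dehydrogenase) from succinate, ubiquinone carries them to complex III, cytochrome c carries them on to complex IV, and complexes I, III and IV pump the protons that drive ATP synthase, complex V. Core subunits hold the redox centres or form the proton channels, while supernumerary subunits stabilise and help to assemble the complex. Some of the core subunits are encoded by mitochondrial DNA, and the other subunits by nuclear genes. Healthy prostate secretory epithelium is known for exporting citrate instead of oxidising it, and prostate cancer cells for oxidising it again.

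The targeted genes fell in their own line. ERG fell by 0.82 log2 units with EtOH and by 1.09 with DHT in VCaP, and ETV1 fell by 0.61 and 0.62 in LNCaP. The androgen-responsive gene FKBP5 rose with DHT by 1.90 in VCaP and 3.52 in LNCaP control cells, and KLK3 (prostate-specific antigen) by 0.61 and 2.47 (limma, largest adjusted p of these 8 = 0.00049). The 4 measured luminal markers of 6 listed (KLK3, KRT8, KRT18 and EPCAM) lay above the array median on every array. Their summed intensity was 11955 to 30271 per array, against 99.7 to 748 for each list of fibroblast, endothelial, leukocyte and muscle markers. Of those lists COL1A1 (1 of 5 fibroblast markers) and ACTA2 and DES (2 of 3 muscle markers) were also above the median on every array of both lines, and LYZ (1 of 4 leukocyte markers) on every VCaP array. In VCaP the ratio of 3′ to 5′ control probes for GAPDH, a measure of RNA quality, did not overlap between the groups of any comparison. Its means were 1.05 in siControl EtOH, 1.09 in siERG EtOH, 1.07 in siControl DHT and 1.03 in siERG DHT (exact permutation p = 0.1 for each pair, the smallest that 3 against 3 arrays allow). In LNCaP its group means lay between 1.07 and 1.11, and the groups were apart in 1 comparison, shETV1 against shControl with DHT. The same ratio for ACTB was 2.49 to 3.06 on the siERG DHT arrays and 3.46 to 3.56 on the siControl DHT arrays, with no overlap (exact permutation p = 0.1), and overlapped in the other 3 VCaP comparisons. Array VCaP siERG DHT replicate C was the lowest of its 3 in 31 of the 38 subunit genes and replicate A the highest in 31, so calls and counts that change without replicate C are given with and without it. In LNCaP shControl EtOH, replicate C was the lowest in 27 and replicate B the highest in 28. In these bulk samples, fewer cells of a type and less RNA per cell cannot be told apart.

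All 38 genes were bright. Their intensities ran from 1004 (NDUFB7, lowest array) to 12570 (COX7C, highest array), while array medians over all probe sets were 42.7 to 53.2, so every gene entered the tests in both lines, among 12850 genes in VCaP and 12809 in LNCaP. Changes below are differences of log2(intensity + 16) ± SE from limma with n = 3 arrays per group, and a gene is said to rise or fall when its p, adjusted over all genes tested, is below 0.05. The changes were small in every comparison. The 95% interval of the change stayed within 1.5-fold for all 38 genes in every comparison but 1, DHT in siERG cells, where CYC1 reached past it. The interval's median half-width was 0.13 in VCaP and 0.10 in LNCaP.

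**Figure D1:**
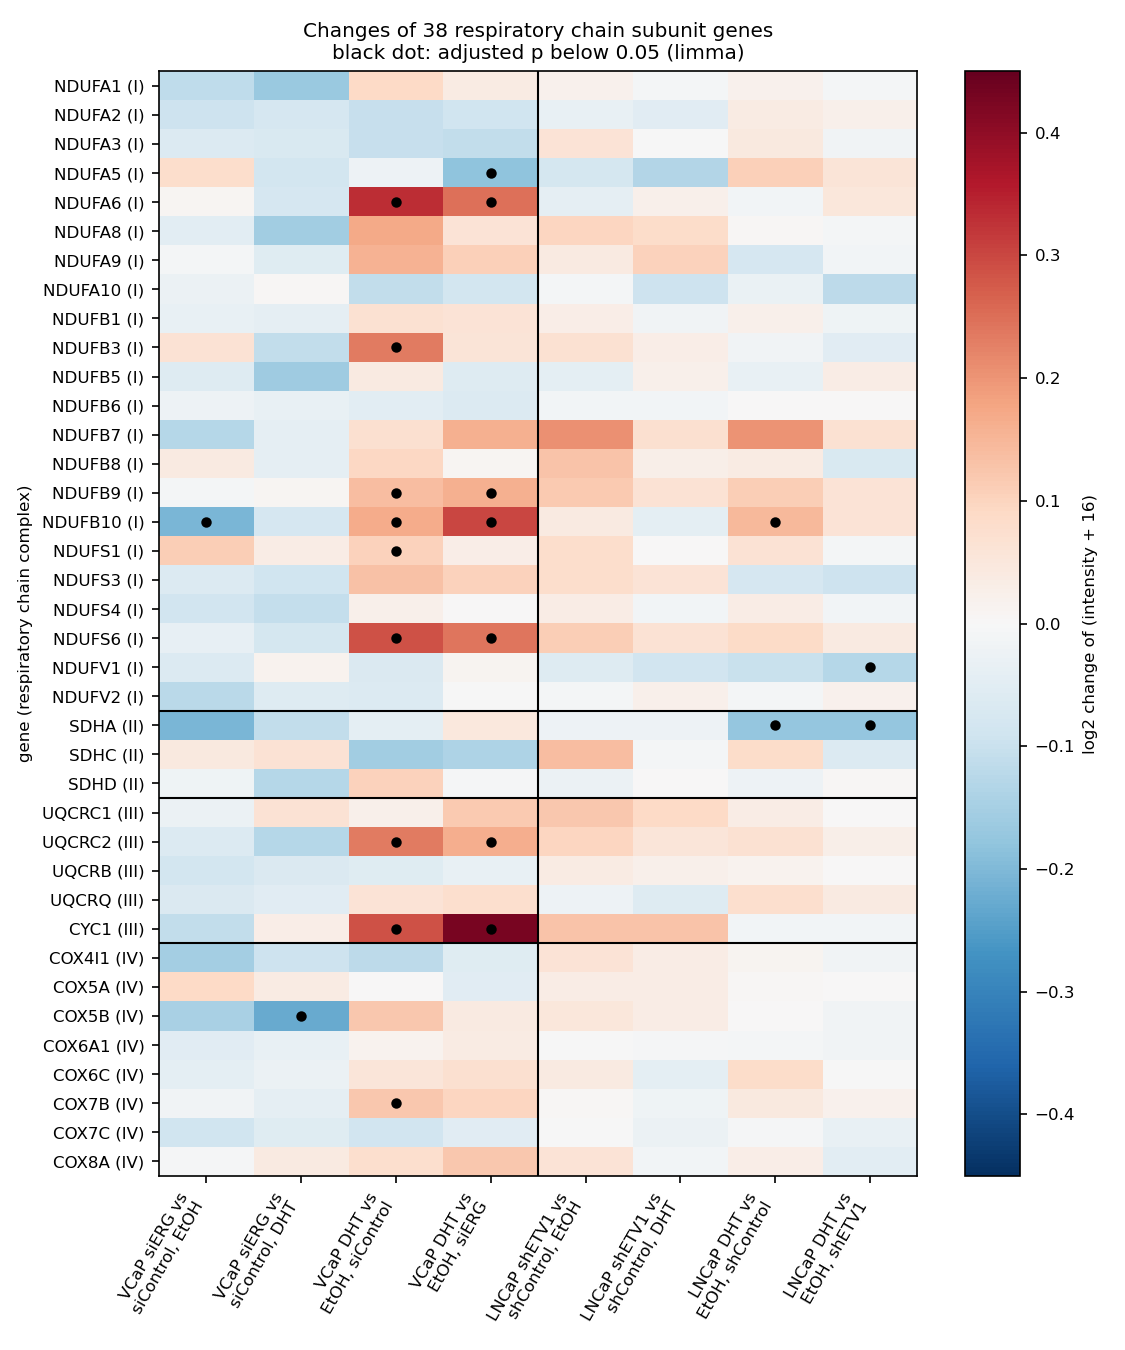
Change of each of the 38 subunit genes (rows, complex in brackets) in 4 comparisons of VCaP and 4 of LNCaP (columns), as log2 of intensity + 16; red is higher, blue lower, and a black dot marks an adjusted p below 0.05. Most dots lie in the columns for DHT in VCaP, 9 in siControl and 7 in siERG cells. These are 23.7% and 18.4% of the 38 genes, where 45.2% and 45.4% of all genes tested passed.

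ETS factors bind the letters CCGGAAG, which are also the site of GABP, an ETS family member that controls many respiratory chain genes together with NRF1 (GCGCATGC), YY1 (AAGATGGCG) and the oestrogen-related receptors (AAGGTCA). The 4 motifs were searched on both strands in the 250 bases before and 50 after the gene start, for the 32 of 38 genes with a RefSeq promoter (GRCh38.p14). CCGGAAG stood in 10 of 32 promoters (31.2%, against 14.2% of 15841 promoters of protein-coding genes), the NRF1 letters in 6 (18.8% against 4.26%), the YY1 letters in 4 (12.5% against 2.74%) and the receptor letters in 4 (12.5% against 3.13%). Besides COX5B, CCGGAAG was found in NDUFA1, NDUFB7, NDUFS1, NDUFS3, SDHD, UQCRQ, COX4I1, COX6A1 and COX8A. The 4 promoters below belong to genes on which the results turn. COX5B was the gene that fell after siERG with DHT, NDUFA6 and NDUFS6 had the smallest adjusted p values for DHT in VCaP control cells, and NDUFB10 passed in the most comparisons within a line. Capitals mark any of the 4 motifs on either strand. COX5B held CCGGAAG at 2 places and the NRF1 letters once, NDUFA6 the NRF1 and YY1 letters, NDUFS6 the NRF1 and receptor letters (as TGACCTT on the strand shown), and NDUFB10 none of the 4. A match describes the letters and does not show binding.
COX5B, chr2:97645812-97646111, plus strand: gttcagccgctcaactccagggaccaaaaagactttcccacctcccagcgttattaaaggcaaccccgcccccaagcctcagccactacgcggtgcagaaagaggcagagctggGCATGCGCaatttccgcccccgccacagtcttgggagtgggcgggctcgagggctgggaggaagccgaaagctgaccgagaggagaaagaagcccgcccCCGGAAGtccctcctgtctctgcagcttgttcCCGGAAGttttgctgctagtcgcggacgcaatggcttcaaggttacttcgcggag
NDUFA6, chr22:42090723-42091022, minus strand: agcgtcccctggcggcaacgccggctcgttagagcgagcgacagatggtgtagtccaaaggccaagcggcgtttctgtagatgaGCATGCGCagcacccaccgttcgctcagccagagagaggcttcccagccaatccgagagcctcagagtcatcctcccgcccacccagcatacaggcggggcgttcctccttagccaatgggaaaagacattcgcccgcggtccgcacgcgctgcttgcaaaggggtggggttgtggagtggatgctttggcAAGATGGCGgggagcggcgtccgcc
NDUFS6, chr5:1801157-1801456, plus strand: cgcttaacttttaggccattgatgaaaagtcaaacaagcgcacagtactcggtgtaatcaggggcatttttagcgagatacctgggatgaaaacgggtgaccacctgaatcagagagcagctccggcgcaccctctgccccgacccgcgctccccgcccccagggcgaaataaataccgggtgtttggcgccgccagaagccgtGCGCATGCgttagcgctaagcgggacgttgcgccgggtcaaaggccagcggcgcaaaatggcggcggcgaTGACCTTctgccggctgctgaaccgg
NDUFB10, chr16:1959288-1959587, plus strand: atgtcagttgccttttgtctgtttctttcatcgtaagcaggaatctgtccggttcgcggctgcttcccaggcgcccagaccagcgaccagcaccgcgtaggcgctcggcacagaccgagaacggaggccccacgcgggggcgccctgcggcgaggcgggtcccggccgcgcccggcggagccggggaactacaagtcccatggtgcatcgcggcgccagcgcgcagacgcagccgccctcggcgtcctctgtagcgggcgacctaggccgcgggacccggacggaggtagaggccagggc

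ERG knockdown in VCaP left nearly all subunit genes below the threshold. With EtOH 1 of 38 fell and 0 rose, against 5.92% of all genes tested that fell and 5.36% that rose (11.3% in all). With DHT 1 fell and 0 rose, against 5.24% and 3.81% (9.05% in all). The gene that fell with EtOH was NDUFB10, a supernumerary subunit of the membrane arm of complex I, and the one that fell with DHT was COX5B, a zinc-binding subunit on the matrix side of complex IV.

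NDUFB10 read 4031, 3767 and 3992 on the siControl EtOH arrays and 3521, 3349 and 3341 on the siERG EtOH arrays. All siERG arrays lay below all siControl arrays. The change was -0.21 ± 0.06 (adjusted p = 0.0396), a fold of 0.867, and its second probe set changed by -0.21. With DHT the change after siERG was -0.07 (adjusted p = 0.476), and -0.18 on the second probe set. The call with EtOH was lost without any 1 of 10 of the 12 VCaP arrays (all but siERG DHT replicates A and C), and with the GAPDH ratio as a covariate the change was -0.10 (adjusted p = 0.591).

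COX5B read 6094, 6125 and 6007 on the siControl DHT arrays and 5388, 5362 and 4839 on the siERG DHT arrays, with no overlap. The change was -0.23 ± 0.06 (adjusted p = 0.0375), a fold of 0.855. With EtOH it was -0.15 (adjusted p = 0.141). The 3 other probe sets of COX5B had the same sign with DHT, from -0.22 to -0.10. The call was lost without any 1 of 9 of the 12 arrays (all but siControl EtOH replicate A and siERG EtOH replicates B and C), and with the GAPDH ratio as a covariate the change was -0.25 (adjusted p = 0.260), with the ACTB ratio -0.15 (0.281), and without siERG DHT replicate C -0.18 (0.0703).

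Most other subunit genes had slightly lower values after siERG. Changes were below 0 in 31 of 38 genes with EtOH (median -0.05, all genes tested 0.01) and in 29 with DHT (median -0.06, all genes tested 0.02). By complex the medians with EtOH were -0.04 in I, -0.02 in II, -0.07 in III and -0.05 in IV, and with DHT -0.07, -0.11, -0.05 and -0.04. The arrays of the groups did not overlap, with siERG lower, in 15 genes with EtOH (17.4% of all genes tested) and 9 with DHT (12.4%), and with siERG higher in 3 (17.7%) and 0 (12.6%). The 2 comparisons share no arrays, and the change had the same sign in 28 of 38 genes, with Pearson's r = 0.42 across genes. Most genes lay below 0 in both, so many signs would match for that reason alone. The genes are not independent and share the arrays' depth and scaling. At an unadjusted p below 0.05, 2 genes were higher and 4 lower with EtOH, and 0 higher and 5 lower with DHT. The share of all genes at that level is not given, here or below. Such counts therefore do not show a difference from other genes. The size of the EtOH shift moved with scaling: the median was -0.10 after centring each array on its median, with 2 genes fallen (NDUFB10 and SDHA) and all-gene shares of 3.06% risen and 9.13% fallen, and -0.02 after quantile normalization, with NDUFS1 risen and the same 2 fallen and all-gene shares of 6.15% and 7.67%. It was 0.03 with the GAPDH ratio as a covariate, where 0 of the 38 passed, 0 had an unadjusted p below 0.05, and 284 of all genes tested passed instead of 1450. With DHT the median was -0.12 with the GAPDH ratio (0 passed, 7 lower at an unadjusted p below 0.05) and -0.02 with the ACTB ratio (0 passed, 0 at that level), where 276 and 669 of all genes passed instead of 1163. After quantile normalization 3 fell with DHT (COX5B, NDUFA1 and NDUFB5), with all-gene shares of 4.6% risen and 6.6% fallen.

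SDHA, the flavoprotein of succinate dehydrogenase, came near the threshold with EtOH. It read 2326, 2292 and 2200 in siControl and 1929, 1968 and 2013 in siERG, a change of -0.20 ± 0.06 (adjusted p = 0.0678). The siERG arrays were all lower. Without VCaP siERG DHT replicate C, an array of another group that enters through the shared spread, 3 genes fell with EtOH (COX4I1, NDUFB10 and SDHA). The share of all genes that passed with 1 array left out is not given, here or below. NDUFS1, the largest core subunit of complex I, was the highest of the 38 with EtOH at 0.11 (adjusted p = 0.0968). The 10 genes with CCGGAAG in the promoter had a median of -0.06 with EtOH and -0.07 with DHT, and the 22 without it -0.04 and -0.06. Of the 10, 0 passed with EtOH and 1, COX5B, with DHT.

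DHT raised single subunits of complexes I, III and IV in VCaP control cells. There 9 of 38 rose and 0 fell, against 19.6% of all genes tested that rose and 25.5% that fell, so the share that rose was near that of all genes. In complex I, 6 of 22 rose: the supernumerary subunits NDUFA6, NDUFS6, NDUFB3, NDUFB10 and NDUFB9 and the core subunit NDUFS1. In complex III 2 of 5 rose, CYC1 and UQCRC2, in complex IV 1 of 8, COX7B, and in complex II 0 of 3.

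NDUFA6, a subunit of the matrix arm that binds the mitochondrial acyl carrier protein, read 4325, 3980 and 4177 with EtOH and 5208, 5174 and 5321 with DHT in siControl cells. The change was 0.33 ± 0.06 (adjusted p = 0.000891), a fold of 1.26. A second, dimmer probe set of NDUFA6 (mean intensity 695) changed by -0.04, and the call was lost when all its probe sets were averaged (0.15, adjusted p = 0.0652).

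NDUFS6, a zinc-binding subunit near the NADH-oxidising tip of complex I, read 3963, 3713 and 3691 with EtOH and 4488, 4557 and 4840 with DHT. It rose by 0.29 ± 0.06 (adjusted p = 0.00224), a fold of 1.22. NDUFB3, in the membrane arm, read 3806, 3667 and 3599 with EtOH and 4180, 4349 and 4508 with DHT. The rise was 0.23 ± 0.05 (adjusted p = 0.00326), a fold of 1.18. For all 3 genes every DHT array lay above every EtOH array.

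CYC1 is cytochrome c1, which hands electrons to cytochrome c. It read 3053, 2764 and 2854 with EtOH and 3500, 3395 and 3678 with DHT in siControl cells, a change of 0.29 ± 0.07 (adjusted p = 0.00801). UQCRC2, a core protein of complex III that helps to hold the complex together, read 3432, 3575 and 3473 with EtOH and 4127, 3917 and 4293 with DHT, a change of 0.23 ± 0.05 (adjusted p = 0.00476). Neither gene's groups overlapped. Both other probe sets of UQCRC2 were higher too, by 0.16 and 0.38.

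The remaining 4 rises were smaller, 0.17 for NDUFB10 (adjusted p = 0.0311), 0.14 for NDUFB9 (0.0416), 0.12 for COX7B (0.0341) and 0.11 for NDUFS1 (0.0462). A dimmer probe set of COX7B changed by -0.06. These 4 calls were each lost without any 1 of 4 to 8 of the 12 VCaP arrays. Across the 38 genes the median was 0.06 (all genes tested -0.03), with 26 above 0, and by complex it was 0.08 in I, -0.05 in II, 0.06 in III and 0.04 in IV. The DHT arrays lay wholly above the EtOH arrays in 18 genes (25.1% of all genes tested) and wholly below in 7 (31.9%). Among the genes below 0, SDHC (-0.16), COX4I1 (-0.12) and NDUFA10 (-0.11) had adjusted p values of 0.118, 0.24 and 0.0929. CYC1, NDUFB3, NDUFS6 and UQCRC2 kept their call in every alternative run for them. The count was 5 without siControl EtOH replicate B, siControl EtOH replicate C or siControl DHT replicate C (CYC1, NDUFA6, NDUFB3, NDUFS6 and UQCRC2 each time) and 15 without siERG DHT replicate C, of which COX4I1, NDUFA10, NDUFA2 and SDHC were falls. All-gene shares for these fits are not given.

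**Figure D2:**
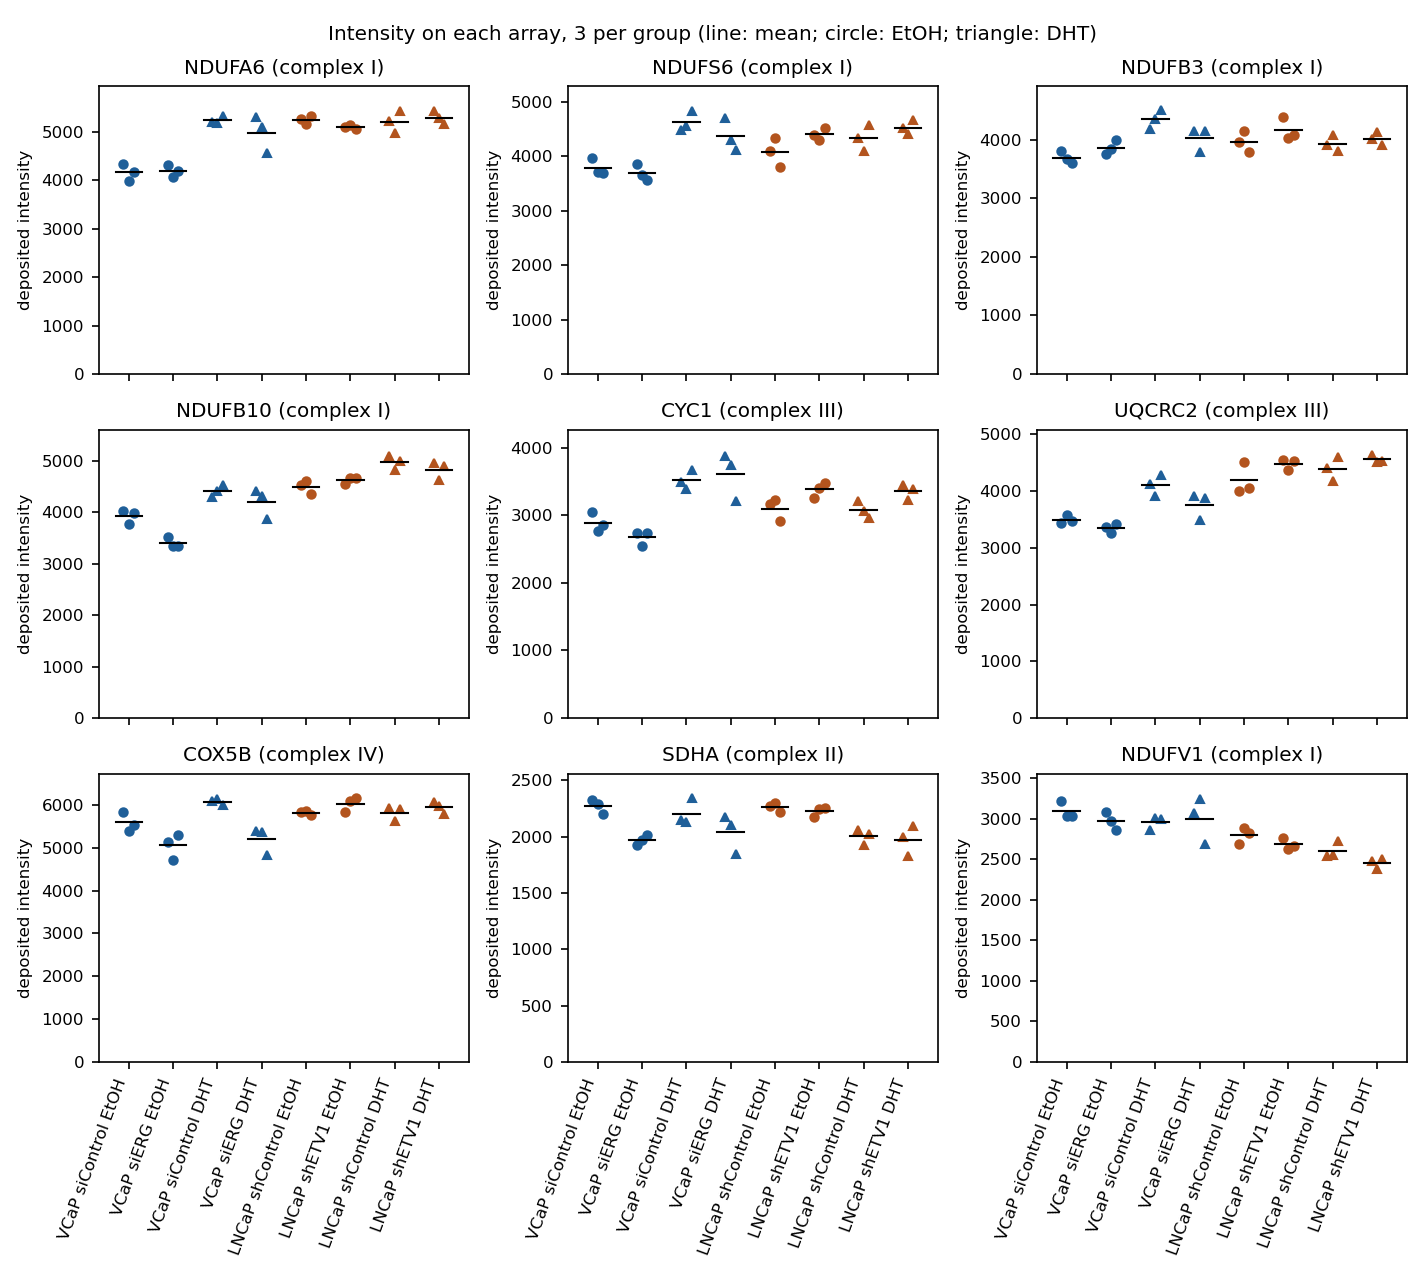
Deposited intensity of 9 subunit genes on each array in the 8 groups (VCaP blue, LNCaP orange; circles EtOH, triangles DHT; line, mean of 3 arrays), with each axis from 0. NDUFA6, NDUFS6, CYC1 and UQCRC2 are higher with DHT in VCaP, and SDHA is lower with DHT in LNCaP.

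In VCaP cells with ERG knocked down, DHT raised largely the same subunits. There 6 of 38 rose and 1 fell, against 20.1% and 25.3% of all genes tested. The 6 that rose, CYC1, NDUFB10, NDUFA6, NDUFS6, NDUFB9 and UQCRC2, were also among the 9 of the control cells. The changes of the 2 comparisons share no arrays, but their calls are not independent. Each gene's SE came from a fit of all VCaP groups and was the same in both (CYC1, 0.07), so the shared calls are not separate evidence. Changes had the same sign in 33 of 38 genes, and across genes, which are not independent and share the arrays' depth and scaling, Pearson's r was 0.81. The gene that fell was NDUFA5, a supernumerary subunit of the matrix arm of complex I.

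CYC1 had the largest rise of the 38. It read 2742, 2549 and 2736 with EtOH and 3881, 3744 and 3213 with DHT in siERG cells, a change of 0.43 ± 0.07 (adjusted p = 0.000681). NDUFB10 read 3521, 3349 and 3341 with EtOH and 4409, 4321 and 3863 with DHT, a change of 0.30 ± 0.06 (adjusted p = 0.00127). Every DHT array lay above every EtOH array in both, although DHT replicate C was the lowest of its group.

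NDUFA6 read 4305, 4063 and 4182 with EtOH and 5296, 5096 and 4551 with DHT, and rose by 0.25 ± 0.06 (adjusted p = 0.00531). NDUFS6 (0.24, adjusted p = 0.00625), NDUFB9 (0.16, 0.0245) and UQCRC2 (0.16, 0.0302) were the others. UQCRC2 lost its call without siERG EtOH replicate A or B or siERG DHT replicate A or C (0.14, adjusted p = 0.0768, without the last), and NDUFB9 without siERG EtOH replicate A or C or siERG DHT replicate A or B. NDUFA5 went the other way, from 3843, 3718 and 3812 with EtOH to 3239, 3301 and 3488 with DHT, with no overlap and a change of -0.18 ± 0.04 (adjusted p = 0.0057). In siControl cells NDUFA5 changed by -0.02 (adjusted p = 0.723).

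Over the 38 genes the median was 0.04 (all genes tested -0.03), with 25 above 0, and complex III had a median of 0.12 against 0.03 in I, -0.01 in II and 0.04 in IV. The groups did not overlap in 8 genes with DHT higher (22.8% of all genes tested) and 2 with DHT lower (29.3%). Without siERG DHT replicate C, 11 rose and 1 fell, in a fit whose all-gene shares are not given. After centring on the array median 10 rose and 0 fell, with all-gene shares of 26.8% and 19.2%. With the GAPDH ratio as a covariate 0 of 38 passed and 3 had an unadjusted p below 0.05, all of them falls in sign. Of all genes tested 2528 passed in that fit instead of 5834, and the median SE over all genes was 0.14 instead of 0.07. CYC1 then changed by 0.27 ± 0.15 (adjusted p = 0.230).

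The DHT response itself did not differ detectably between siERG and siControl cells for any of the 38 genes. The interaction passed for 0 genes with limma, against 0.35% of all genes tested (0.0778% higher and 0.272% lower in siERG cells), and 2 genes had an unadjusted p below 0.05, both lower in sign. The lowest estimates were -0.17 ± 0.07 for NDUFB3 (adjusted p = 0.412) and -0.16 ± 0.06 for NDUFA5 (0.38), and the highest were 0.14 ± 0.10 for CYC1 (0.667) and 0.13 ± 0.08 for NDUFB10 (0.59). All 38 intervals stayed within 1.5-fold, and their median half-width was 0.18.

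ETV1 knockdown in LNCaP changed 0 of 38 subunit genes in either condition with limma. With EtOH 1.23% of all genes tested rose and 2.97% fell (4.2% in all), and with DHT 2.67% rose and 2.49% fell (5.16% in all). At an unadjusted p below 0.05, 1 gene was higher and 0 lower with EtOH, and 1 higher and 1 lower with DHT. The gene medians were 0.04 with EtOH (25 of 38 above 0) and 0.00 with DHT (20 above 0), against 0.01 and 0.02 over all genes. By complex they were 0.04 in I, -0.02 in II, 0.10 in III and 0.04 in IV with EtOH, and 0.01, -0.01, 0.06 and -0.01 with DHT.

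CYC1 stood at 0.13 ± 0.05 after shETV1 in both conditions (adjusted p = 0.229 with EtOH and 0.204 with DHT). It read 3164, 3221 and 2915 in shControl EtOH, 3256, 3411 and 3485 in shETV1 EtOH, 3206, 3060 and 2956 in shControl DHT, and 3449, 3232 and 3395 in shETV1 DHT. The shETV1 arrays were all higher than their controls in both conditions. NDUFB7 had the highest value with EtOH, 0.20 ± 0.10 (adjusted p = 0.299), and NDUFA5 the lowest with DHT, -0.13 ± 0.05 (0.173). In shControl EtOH, NDUFB7 read 1281, 1399 and 1004, the last on replicate C. Groups did not overlap in 6 genes with shETV1 higher (10.8% of all genes tested) and 1 lower (13.4%) with EtOH, and in 5 higher (15.9%) and 5 lower (10.7%) with DHT. Quantile normalization turned the all-gene split with DHT to 1.7% risen and 3.36% fallen, and centring to 1.74% and 3.79%, with 0 of 38 subunit genes in each.

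In LNCaP, DHT moved few subunits although it moved many other genes. In shControl cells 1 of 38 rose and 1 fell, against 18.6% and 22.3% of all genes tested, and in shETV1 cells 0 rose and 2 fell, against 18.9% and 19%. SDHA, which holds the flavin and oxidises succinate in complex II, fell in both, and NDUFB10 rose in the controls. NDUFV1, the core subunit of complex I that binds NADH and flavin, fell in the shETV1 cells.

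SDHA read 2270, 2294 and 2221 with EtOH and 2055, 1927 and 2023 with DHT in shControl cells, a change of -0.18 ± 0.05 (adjusted p = 0.0185). In shETV1 cells it read 2174, 2242 and 2257 with EtOH and 1999, 1826 and 2092 with DHT, a change of -0.17 ± 0.05 (adjusted p = 0.0207). All DHT arrays were lower in both. SDHA has 1 probe set with 1 gene named, which ends in _x_at and so can also bind related sequences. The call in shControl cells was lost without shControl EtOH replicate B (adjusted p = 0.0529), without shControl DHT replicate B (0.0696) and after centring (-0.14, adjusted p = 0.0508), and that in shETV1 cells without shETV1 EtOH replicate B or C or shETV1 DHT replicate B.

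NDUFB10 read 4524, 4597 and 4358 with EtOH and 5095, 4819 and 5002 with DHT in shControl cells, with no overlap and a change of 0.15 ± 0.04 (adjusted p = 0.0165). Its second probe set changed by 0.05. The call was lost without shControl EtOH replicate C (adjusted p = 0.0583) and without shControl DHT replicate A (0.0617). NDUFV1 read 2764, 2627 and 2661 with EtOH and 2482, 2380 and 2503 with DHT in shETV1 cells, a change of -0.13 ± 0.05 (adjusted p = 0.0452). The groups did not overlap, but the call was lost without any 1 of 9 of the 12 LNCaP arrays (all but shControl EtOH replicates A and B and shControl DHT replicate C).

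Medians over the 38 genes were 0.02 in shControl cells (25 above 0) and -0.01 in shETV1 cells (17 above 0), against -0.01 and 0.00 over all genes tested. Groups did not overlap in 6 genes with DHT higher (22.8%) and 2 lower (27.1%) in shControl cells, and in 2 higher (25.1%) and 5 lower (25.2%) in shETV1 cells. The sign of these small shifts followed the scaling in shControl cells. Quantile normalization gave 0 risen and 4 fallen (NDUFA9, NDUFS3, NDUFV1 and SDHA) with all-gene shares of 17.6% and 24.9%, and centring 3 risen (NDUFA5, NDUFB10 and UQCRQ) and 0 fallen with 22.4% and 18.9%. In shETV1 cells quantile normalization gave 0 risen and 4 fallen, with 16.3% and 23.4%. The DHT response did not differ detectably between shETV1 and shControl cells for any of the 38 (0 past the threshold and 0 at an unadjusted p below 0.05 with limma, against 0.101% of all genes tested, 0.0781% higher and 0.0234% lower), with 31 estimates below 0, a median of -0.03 and all intervals within 1.5-fold.

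**Figure D3:**
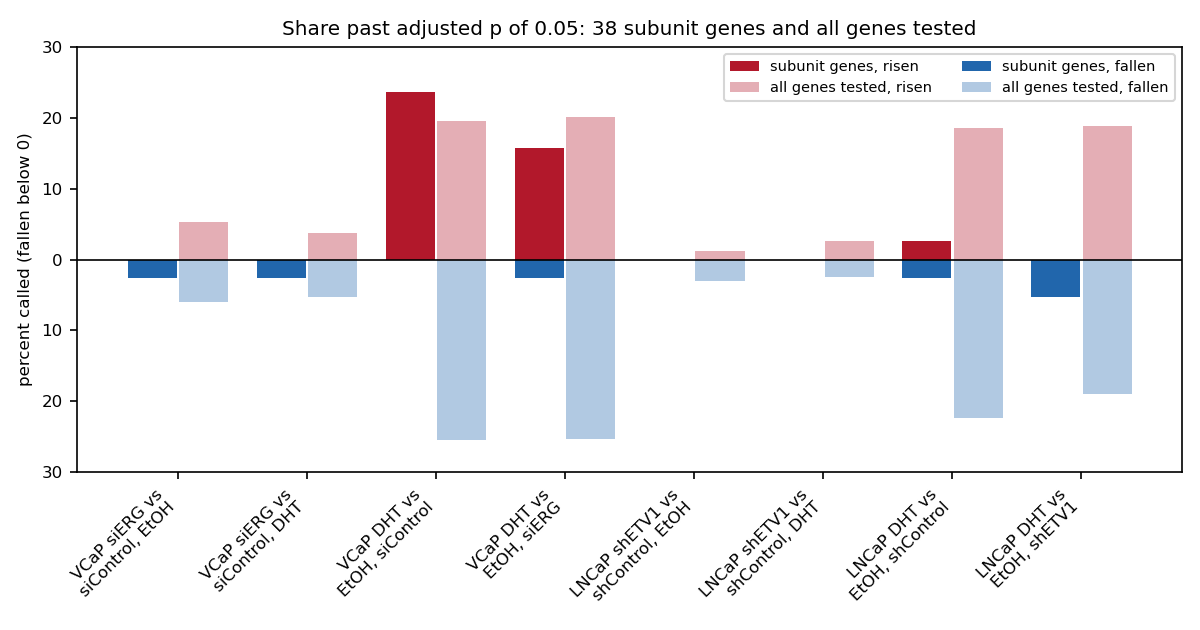
Percent of the 38 subunit genes (dark bars) and of all genes tested (light bars) that rose (red, upward) or fell (blue, downward) past an adjusted p of 0.05 in each comparison; bars start at 0. The subunit genes rose in VCaP with DHT at about the all-gene share, and in LNCaP with DHT fewer passed, 2 of 38 in each comparison.

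The difference between the lines was tested as the LNCaP change minus the VCaP change, over 12293 genes tested in both. For DHT in control cells it passed for 3 subunit genes, all lower in LNCaP, against 14.3% of all genes lower and 17.6% higher. They were NDUFA6 (-0.34 ± 0.07, adjusted p = 0.000735), NDUFB3 (-0.25 ± 0.07, 0.00938) and CYC1 (-0.30 ± 0.09, 0.0154).

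In LNCaP shControl cells NDUFA6 read 5255, 5163 and 5323 with EtOH and 5228, 4970 and 5420 with DHT. NDUFB3 read 3967, 4147 and 3795 with EtOH and 3908, 4078 and 3803 with DHT. These arrays overlapped, as did those of CYC1 given above, whereas in VCaP siControl cells each gene's arrays were apart. The differences for NDUFB3 and CYC1 passed in every alternative run for them. That for NDUFA6 was 0.13 on its second probe set, the opposite sign. After quantile normalization 14 subunit genes differed, all lower in LNCaP, with all-gene shares of 15.7% higher and 19.6% lower. The count was 6 without VCaP siERG DHT replicate A, VCaP siERG DHT replicate C or LNCaP shControl EtOH replicate C.

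**Figure D4:**
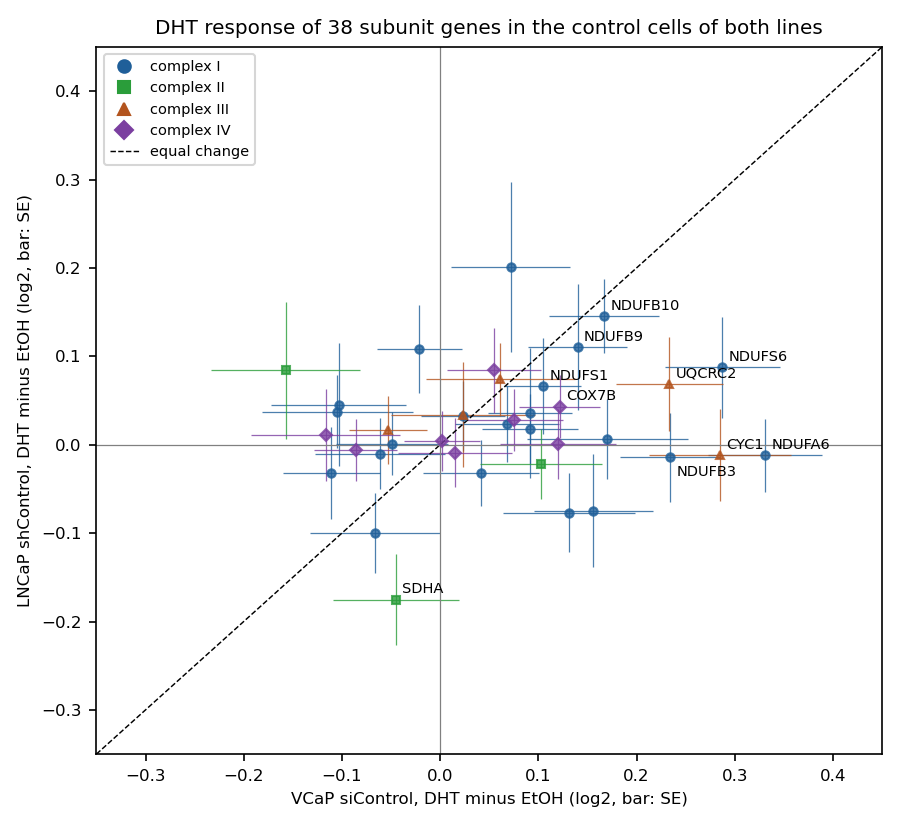
DHT change of the 38 subunit genes in VCaP siControl (horizontal) and LNCaP shControl cells (vertical), as log2 of intensity + 16, with bars of 1 SE; the dashed line marks equal change. NDUFA6, CYC1 and NDUFB3 lie to the right near 0 on the vertical axis, NDUFB10 near the dashed line, and SDHA lowest on the vertical axis.

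NDUFB10 was the subunit gene risen with DHT in the control cells of both lines, 1 of the 9 risen in VCaP and the 1 risen in LNCaP, and its difference between lines was -0.02 ± 0.07 (adjusted p = 0.842), or -0.20 on its second probe set. Over the 38 genes the DHT changes of the control cells had the same sign in 23, with r = 0.12 across genes.

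Knockdown effects differed between the lines for 1 subunit gene in each condition. NDUFB10 differed with EtOH by 0.25 ± 0.07 (adjusted p = 0.0254), against 4.16% of all genes higher in LNCaP and 5.41% lower (9.57% in all). COX5B differed with DHT by 0.26 ± 0.07 (adjusted p = 0.0237), against 4.3% and 3.24% (7.53% in all). NDUFB10 read 4547, 4661 and 4661 in LNCaP shETV1 EtOH, overlapping its controls, where it was lower in VCaP siERG. COX5B read 5923, 5618 and 5895 in LNCaP shControl DHT and 6071, 5982 and 5784 in shETV1 DHT, also overlapping. Differences were above 0 in 33 of 38 genes with EtOH (median 0.09, all genes 0.00) and in 29 with DHT (median 0.07, all genes 0.01).

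The NDUFB10 difference was lost without any 1 of 7 arrays and the COX5B difference without LNCaP shControl DHT replicate B or shETV1 DHT replicate A. With the ACTB ratio as a covariate the COX5B difference was 0.17 (adjusted p = 0.268). The count with EtOH was 4 without VCaP siERG DHT replicate C (COX4I1, COX5B, CYC1 and NDUFB10), 2 without LNCaP shControl EtOH replicate B and 5 after centring (all-gene shares 7.9% higher and 3.64% lower). With DHT it was 2 without VCaP siERG DHT replicate A. With the GAPDH ratio as a covariate 0 passed in either condition, while 1 gene with EtOH and 8 with DHT had an unadjusted p below 0.05. The changes after siERG and after shETV1 had the same sign in 16 of 38 genes with EtOH and 19 with DHT.

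Some other nuclear subunits and the electron carrier cytochrome c rose with DHT in both lines. Of 16 further subunit genes measured, 4 rose and 0 fell with DHT in VCaP siControl cells, 7 and 0 in siERG cells, 4 and 1 in LNCaP shControl cells and 3 and 1 in shETV1 cells, and 0 passed after either knockdown (at an unadjusted p below 0.05, 1 was lower after siERG in each condition and 0 moved after shETV1). Of all genes tested, 45.2%, 45.4%, 40.9% and 37.9% passed in these 4 comparisons, with 18.6% to 20.1% risen. After the knockdowns 4.2% to 11.3% of all genes passed. CYCS (cytochrome c) rose by 0.41 and 0.36 in VCaP (adjusted p = 7.2e-05 and 0.000194) and by 0.16 and 0.17 in LNCaP (0.00525 and 0.00406). NDUFV3, a small subunit of the NADH-oxidising arm, rose by 0.39 in both VCaP comparisons and by 0.26 and 0.27 in LNCaP, but without probe sets ending in _x_at or _s_at its LNCaP changes were -0.11 and -0.03. NDUFB4, in the membrane arm, fell with DHT in LNCaP by 0.15 and 0.16.

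ATP synthase genes rose and fell in VCaP. Of 17 genes, 2 fell after siERG with EtOH, ATP5F1D (-0.37, adjusted p = 0.00529), the delta subunit of the central stalk, and ATP5MC2 (-0.25, 0.0308), one of the genes for the membrane ring. The share of all genes that passed there was 11.3%. With DHT in siControl cells 5 of 17 rose and 3 fell, close to the 45.2% of all genes that passed (19.6% risen and 25.5% fallen). ATP5F1B, the catalytic beta subunit, rose by 0.21 and ATP5MC3, another ring gene, by 0.20, while ATP5F1D fell by 0.36 and ATP5MC2 by 0.31. In siERG cells 4 rose and 0 fell with DHT, against 45.4% of all genes that passed. After siERG with DHT, and in all 4 comparisons within LNCaP, 0 of 17 passed with limma and 0 had an unadjusted p below 0.05. Between 4.2% and 40.9% of all genes passed in those comparisons.

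Transcripts of the mitochondrial genome did not pass in any comparison of 2 groups within a line, where 4.2% to 45.4% of all genes tested passed. Of 13 listed genes 7 were measured. All 7 lay above 0 after siERG, where 52.2% of all genes tested did with EtOH and 54.6% with DHT. Their medians were 0.07 with EtOH and 0.10 with DHT, and 1 had an unadjusted p below 0.05 in each. With DHT in VCaP siControl cells 2 were lower at that level, and with DHT in LNCaP shETV1 cells 1. Between the lines, the DHT response of control cells was higher in LNCaP for ND4 (0.19 ± 0.07, adjusted p = 0.0417 with limma). Of all genes tested, 31.9% passed in that comparison.

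Among assembly factors, which build the complexes and insert their cofactors, some rose and others fell with DHT in both lines. Of 45 tested, 3 rose and 10 fell with DHT in VCaP siControl cells, 6 and 8 in siERG cells, 8 and 9 in LNCaP shControl and 9 and 9 in shETV1 cells. Of all genes tested, 45.2%, 45.4%, 40.9% and 37.9% passed in these 4 comparisons, so in VCaP the list lay below the background and in LNCaP near it. The largest were in LNCaP, where NDUFAF4, a complex I assembly factor, fell with DHT by 1.45 and 1.29 (adjusted p = 9.02e-10 and 2.53e-09), and COX18, which inserts a complex IV subunit into the membrane, rose by 0.89 and 0.80. In VCaP siERG cells NDUFAF4 rose with DHT by 0.21, and the difference between the control cells of both lines was -1.58 ± 0.07 (adjusted p = 8.27e-13). ATPAF1, an ATP synthase assembly factor, and COX11, a copper carrier for complex IV, fell with DHT in VCaP siControl cells by 0.40 and 0.35.

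After siERG with EtOH the assembly factor COX20 rose by 0.22 and ECSIT and BCS1L fell by 0.29 and 0.20, and with DHT COX16 fell by 0.22. The shares of all genes that passed there were 11.3% and 9.05%. After shETV1 with EtOH 0 of 45 passed, against 4.2% of all genes. At an unadjusted p below 0.05 there were 11 of 45, and the share of all genes at that level is not given. With DHT NDUFAF4 rose by 0.33 (adjusted p = 0.00185), and COX18 and COX20 fell by 0.19 and 0.20, where 5.16% of all genes passed. The COX20 change in LNCaP was 0.04 with its probe sets averaged.

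Among 18 regulators of mitochondrial biogenesis tested in VCaP, 1 fell and 0 rose after siERG in each condition. There 11.3% of all genes tested passed with EtOH and 9.05% with DHT. PPARGC1B, a coactivator of respiratory chain genes, fell after siERG by 0.47 in EtOH cells (adjusted p = 0.0411) and by 0.67 in DHT cells (0.00823), and rose with DHT by 0.95 in siControl (0.000136) and 0.74 in siERG cells (0.000755). Its knockdown effect differed between the lines by 0.73 with EtOH and 0.91 with DHT. With DHT in VCaP siControl cells 4 regulators rose and 2 fell, among them GABPB1, the partner of GABP (0.25), and POLG2 (-0.71) and TWNK (-0.42), of mitochondrial DNA replication. In LNCaP, with 19 regulators tested, 3 rose and 1 fell with DHT in shControl cells and 6 rose and 2 fell in shETV1 cells. The shares of all genes that passed were 45.2% in VCaP siControl and 40.9% and 37.9% in LNCaP. GABPB1 rose by 0.42 and 0.36 and NRF1 fell by 0.39 and 0.62. After shETV1 0 regulators passed, against 4.2% of all genes with EtOH and 5.16% with DHT. At an unadjusted p below 0.05 there were 4 with EtOH and 2 with DHT.

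Single enzymes that feed the chain with electrons changed with DHT. Of 15 genes of the TCA cycle and pyruvate dehydrogenase, 5 rose and 4 fell with DHT in VCaP siControl cells, 6 and 3 in siERG cells, 3 and 1 in LNCaP shControl and 3 and 0 in shETV1 cells. Of all genes tested, 45.2%, 45.4%, 40.9% and 37.9% passed in these 4 comparisons, and the list lay below that share in LNCaP. IDH3A, of the NAD-dependent isocitrate dehydrogenase, rose by 0.85 and 0.83 in VCaP and 0.43 and 0.35 in LNCaP. PDHA1, of pyruvate dehydrogenase, rose by 0.70 and 0.84 in VCaP (adjusted p = 4.7e-07 and 1.27e-07), and SUCLG2, of succinyl-CoA ligase, fell there by 0.34 and 0.38. After the knockdowns 0 of 15 passed, where 4.2% to 11.3% of all genes did, and 1 or 2 had an unadjusted p below 0.05 in each of those 4 comparisons.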

How the data were processed

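RNA of 24 cultures, 3 per group, was hybridised to 1 array each. The design text calls them biological replicates. The values are probe set intensities on a linear scale as the authors deposited them, and the sources used here do not give their scaling. Of 54675 probe sets, 41091 name 1 gene in the platform annotation and 1801 name several and were not used. Of several probe sets of a gene, the one with the highest mean over 24 arrays was used.

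Differences of log2(intensity + 16) were fitted per line over its 4 groups (12 arrays), and between lines over all 8, with limma 3.58.1 in R 4.3.3. Genes had to exceed the array median on 3 of 12 arrays. P-values were adjusted by Benjamini-Hochberg over all genes tested, at a threshold of 0.05, and the fit was checked on simulated data. The members and lists were chosen with earlier results of these data known. Members named in full in a comparison were those ranking first by adjusted p, at most 3 that rose and 3 that fell, with at most 2 and 2 of each further list, and ERG, ETV1, KLK3 and FKBP5 as checks. Other names were chosen after their values were seen. Alternatives were averaged probe sets, no _x_at or _s_at probe sets, no filter or a 60th percentile filter, quantile normalization, centring on the array median, a pseudocount of 1, the compared groups alone, a replicate block, the GAPDH or ACTB 3′/5′ ratio as a covariate, trended and robust variance, and each array left out.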

Additional observations from a re-analysis of the deposited data

Results flagged for a closer look

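For 5 subunit genes a change differed between the lines by limma's test of the difference, given as LNCaP minus VCaP with its SE and adjusted p. The response to DHT in control cells differed for NDUFA6 (-0.34 ± 0.07, 0.000735), CYC1 (-0.30 ± 0.09, 0.0154) and NDUFB3 (-0.25 ± 0.07, 0.00938), each higher with DHT in 3 of 3 VCaP arrays than in any EtOH array and overlapping in LNCaP. The knockdown effect is that of ETV1 by shRNA in LNCaP and of ERG by siRNA in VCaP, so factor, method and line cannot be told apart. It differed for NDUFB10 with EtOH (0.25 ± 0.07, 0.0254) and for COX5B with DHT (0.26 ± 0.07, 0.0237). In both, the 3 VCaP siERG arrays lay below their controls while the LNCaP groups overlapped. Among all genes, 31.9% passed for the DHT response, and 9.57% (EtOH) and 7.53% (DHT) for the knockdown effect. The NDUFA6 difference had the opposite sign on its second probe set (0.13). With the GAPDH ratio as a covariate in limma, the NDUFB10 and COX5B differences did not pass (adjusted p = 0.559 and 0.0614).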

How the results depend on the processing

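The counts below are of the 38 subunit genes past an adjusted p of 0.05. Brackets hold the count of all genes that passed, and the number tested can differ between settings. Without _x_at or _s_at probe sets 32 of the 38 were tested. After siERG with EtOH the count of 1 (1450) became 0 with no filter (979), with a replicate block (1176) and with the GAPDH (284) or ACTB ratio (1199) as a covariate. It was 2 with centring (1566), with the compared groups alone (1289) or with trended variance (1595), and 3 with quantile normalization (1775). Averaging probe sets (1200), or leaving out those ending in _x_at or _s_at (1115), kept the count but it was then COX5A, risen. After siERG with DHT the count of 1 (1163) became 0 with averaging (893), without _x_at or _s_at probe sets (874) and with no filter (791). It was also 0 with the compared groups alone (541), with the block (943) and with the GAPDH (276) or ACTB ratio (669). It was 2 with the 60th percentile filter (1270) or trended variance (1264), and 3 with quantile normalization (1439). For DHT in siControl cells 9 (5803) became 4 without _x_at or _s_at probe sets (4483) and 5 with no filter (5564) or the ACTB ratio (5708). In siERG cells 7 (5834) became 0 with the GAPDH ratio (2528), while averaging gave 5 risen and 4 fallen (5039). After shETV1 with DHT 0 (661) became 1, NDUFB1 risen, without _x_at or _s_at probe sets (531). For DHT in shControl cells 2 (5238) became 0 without those probe sets (3984), 1 with the compared groups alone (4647) and 4 with quantile normalization (5454). In shETV1 cells 2 (4859) became 0 without them (3684) or with the compared groups alone (4731). It was 1 with averaging (4156), no filter (4326), the block (4608) or the GAPDH (4689) or ACTB ratio (4885), and 4 with quantile normalization (5080). The difference in knockdown effect between lines with EtOH, 1 (1177), became 0 with averaging (930), no filter (875) or the GAPDH ratio (290). It was 2 with trended variance (1208), 3 with quantile normalization (1478) and 5 with centring (1419). With DHT, 1 (926) became 0 with no filter (760) or the GAPDH (792) or ACTB ratio (598), and 3 with quantile normalization (1129). The difference in DHT response of control cells, 3 (3927), became 5 with the 60th percentile filter (3874) or the GAPDH ratio (3174), 6 with trended variance (3984) and 14 with quantile normalization (4343).

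Leaving out 1 array gave 0 to 3 after siERG with EtOH, 0 to 1 with DHT, 5 to 15 and 5 to 12 for DHT in siControl and siERG cells, 0 to 0 after shETV1 in both conditions, 1 to 3 and 0 to 2 for DHT in shControl and shETV1 cells, 0 to 0 for both interactions, and 0 to 4, 0 to 2 and 3 to 6 for the differences between lines. The counts of all genes in these runs are not given. Signs turned for NDUFA6 without _x_at or _s_at probe sets (-0.037 and -0.060 with DHT in VCaP, 0.13 between lines), for NDUFV3 likewise (-0.11 and -0.027 in LNCaP) and for COX20 with averaging (0.037). Of 692 re-runs of 27 results on named subunit genes, 542 kept sign and call, 147 lost the call and 3 turned sign. Arrays with the same letter did not deviate together (correlations -0.13 to 0.11 in VCaP and -0.22 to 0.12 in LNCaP), so the block rests on a shared letter alone. Beyond the settings' own construction, such as fewer arrays or other probe sets, the cause was not tested. A change under about 0.1 lay within the median half-width of the intervals.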
